A study of Mus musculus with 2 samples.

Results

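Messenger RNA of 10 genes of arginine and polyamine metabolism was read in mouse bone marrow-derived macrophages (BMDMs), untreated or after 18 h with IL-4. The untreated sample was also labelled 18 h. The genes were Arg1, Arg2, Nos2, Ass1, Slc7a2, Odc1, Oaz1, Srm, Sms and Sat1, and every gene-directed probe whose RefSeq accession belonged to one of them was taken. This gave 16 probes of 39424 on the array, and 10 genes of 20662 that could be named. The marrow came, for both conditions, from male mice aged 8 weeks that were Crif1 f/f, that is, with floxed Crif1 alleles, and was grown into macrophages with M-CSF, and the methods name no Cre for these arrays. Each condition was measured on 1 single-colour Agilent array (Cy3), 2 arrays in all. No replicate check and no p-value can therefore be given, and whether the RNA was pooled and which IL-4 concentration was used for the arrays is not given in the sources used here. The methods state in general that experiments were repeated independently with several mice per group, without saying how this applies to the arrays. The question put to the arrays was what IL-4 makes macrophages express.

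Arginine enters macrophages through cationic amino acid carriers and then meets competing enzymes. Arginase splits it into ornithine and urea, and nitric oxide synthase turns it into nitric oxide and citrulline, from which arginine can be rebuilt by argininosuccinate synthase and lyase. Ornithine is the substrate of ornithine decarboxylase, which makes putrescine, and the later synthases extend putrescine to spermidine and spermine. High arginase is a hallmark of mouse macrophages activated by IL-4, and high inducible nitric oxide synthase is one of macrophages activated by interferon and bacterial products.

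The intensity of a spot is the scanner brightness after the software has subtracted the background, and it is given below as deposited, before any scaling between arrays. A log2 difference subtracts the untreated from the IL-4 array, each first scaled to its 75th percentile, and 1 unit is 2-fold. The error beside a log2 difference is the one that the scanner software estimates for the 2 spots, about 10% of the intensity for bright spots. It covers the spots and not the spread between cultures. All 16 probes were printed in 1 spot each, none of these spots was flagged as an outlier, and all were well above background on both arrays by the software's own flag. Intensities of different probes are not compared with each other, because probes differ in how strongly they bind.

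The cells carried macrophage transcripts, and transcripts of other cell types were present on both arrays. Of 8 macrophage markers 7 were matched, and all 7 were well above background on both arrays. Cd14, Fcgr1 and Mertk had log2 differences of -1.42, -1.23 and -1.14, past 2-fold lower, Itgam and Lyz2 had -0.71 and -0.70 at their brightest probes, and Csf1r and Adgre1 had 0.09 and 0.17. The median over the 7 was -0.71, and their summed intensity, most of it from Csf1r and Lyz2, was 296935 untreated and 273913 with IL-4. All 7 stromal and endothelial markers were well above background on both arrays, Col1a2 with an intensity of 233342 in untreated and 234332 in IL-4-treated BMDMs, and their summed intensity, most of it from Col1a2, was 315824 and 309616. Their log2 differences had a median of 0.02 and ran from -0.34 for Col1a1 to 0.51 for Pdgfra and 0.61 for Pecam1. The 7 neutrophil markers that could be matched were also well above background on both arrays, with a summed intensity, most of it from S100a9, of 39356 and 37586. Their median log2 difference was -0.23, with -0.80 for Ngp, -0.61 for Camp, -0.54 for Ltf and 0.30 for Mpo. Of the eosinophil, basophil and mast cell markers, Cpa3 was well above background in untreated BMDMs only and at least 3.51-fold lower after IL-4. The 4 measured on both arrays had a median log2 difference of 0.13. These were Mcpt8 with -0.74, Siglecf with -0.02 at its brighter probe, Ccr3 with 0.28 and Prg2 with 0.37. Of 4 T cell markers, Cd8a and Cd3g failed the background flag on both arrays, while Cd3e and the brighter probe of Cd4 passed it on both, with log2 differences of -0.31 and 0.00. Whether these markers came from other cells was not tested, nor was the part of such cells in the results below. More RNA per cell and more cells of a type cannot be told apart in such bulk RNA.

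Of the 10 genes, 2 had a signal 2-fold or more above that of untreated cells and 0 were 2-fold or more below it, with no test between the conditions. Arg1 and Slc7a2 were the higher ones, and the other 8 lay within 2-fold. Among all 17242 genes that were well above background on both arrays, 2.11% were past 2-fold higher and 1.57% past 2-fold lower. In such whole-array counts and ranks, a transcript identifier with no matched gene symbol counts as a gene of its own. When detection on 1 array was enough and lower bounds were counted, these shares were 2.86% and 4.47% of 19743 genes. The median log2 difference was 0.21 over the 10 genes and -0.01 over the 17242. Of the genes past 2-fold when detection on 1 array was enough, 39.0% were higher under the scaling used here. This share was 65.8% under spike-in scaling, 59.8% under quantile normalization, 59.5% under median scaling, 51.9% under cyclic loess and 48.8% without scaling. It was 34.0% when the percentile was taken over the probes detected on both arrays, and 52.6% under another background correction, normexp. The detection rule also matters, since among the 17242 genes 363 were past 2-fold higher and 270 past 2-fold lower under the scaling used here. Median scaling moved the median of the 17242 genes to 0.20 and spike-in scaling moved it to 0.27, so the sign of a small log2 difference depends on the scaling.

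**Figure D1:**
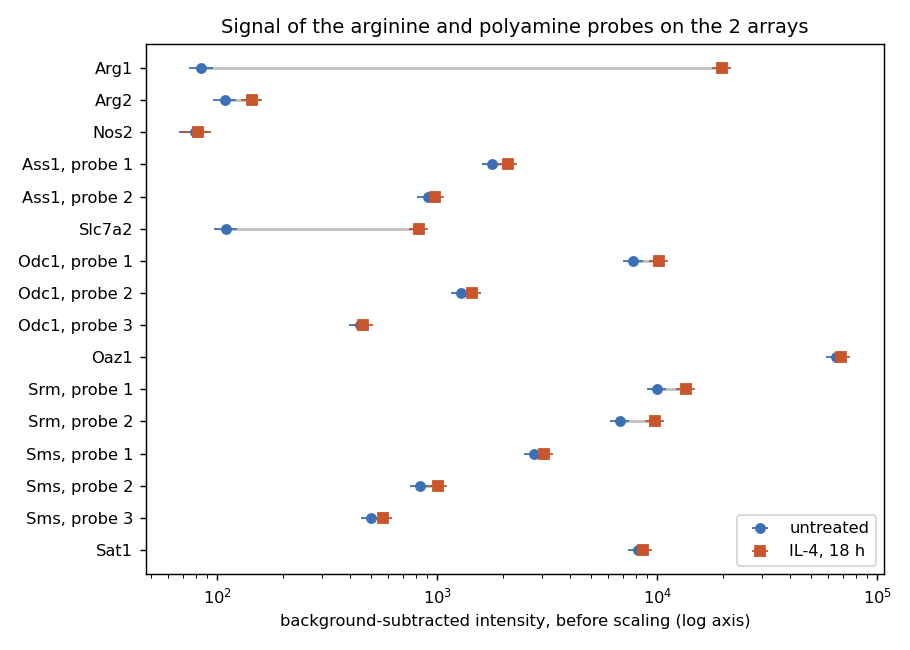
Background-subtracted intensity (x axis, log scale, before scaling) of each of the 16 probes on the untreated array (circles) and the IL-4 array (squares), with 1 row per probe, the probes of a gene numbered from the brightest, and bars for the error estimated by the scanner software. The points of Arg1 and Slc7a2 lie far apart, and for the other 14 probes they lie close together. Positions in different rows are not comparable, because probes bind with different strength.

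Arg1 encodes arginase 1, the cytosolic arginase of liver and of macrophages activated by IL-4. Its probe (NM_007482) had an intensity of 84.9 in untreated BMDMs, with a software error of 10.5, and of 19688 (error 1969) after IL-4. The untreated spot was dim and the IL-4 spot bright, and their errors do not come near each other. The log2 difference was 7.76 ± 0.23, a 216-fold higher signal, and rank 1 of the 17242 genes measured on both arrays. The untreated spot had a median pixel brightness of 164 before background subtraction, where the negative control spots had a median of 57, so the size of the fold rests on how this background is handled. Normexp, run with an offset of 50 added to every spot, gave a log2 difference of 6.79, or 111-fold. Such an offset lowers the folds of dim spots by construction. This normexp value, and those given below for other dim probes, therefore reflect the offset as well as the background. Over all 15 alternatives Arg1 stayed between 111-fold and 264-fold. The filters and cutoffs among them cannot move the log2 difference of any of the 10 genes. Keeping outlier spots or taking the log2 values deposited by the authors hardly moves it. Counts of alternatives therefore rest on the scalings, normexp and the probe rule.

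Arg2, the mitochondrial arginase, was measured by 1 probe (NM_009705). The intensity was 109 (error 13.0) in untreated and 144 (error 15.9) in IL-4-treated BMDMs, so the IL-4 spot was somewhat brighter and the errors did not overlap before scaling. The log2 difference was 0.30 ± 0.23, or 1.23-fold. It was above 0 in all 15 alternatives, from 0.03 with normexp to 0.59, or 1.51-fold, with spike-in scaling. The log2 difference of Arg1 exceeded that of Arg2 by 7.45 ± 0.33, and by 6.76 with normexp. This gap is free of any constant scaling between the arrays.

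Nos2 encodes inducible nitric oxide synthase, which competes with arginase for arginine. Its probe (NM_010927) read 79.3 in untreated and 81.6 in IL-4-treated BMDMs. Both values were low, the median pixel brightness being 127 and 129 against 57 for negative controls, and they overlap within their errors. The log2 difference was -0.06 ± 0.31, and it lay between -0.20 and 0.23 over the alternatives. It was positive in 5 of 15, each a change of scaling, and many of the others leave it as it is. A difference of less than about 0.3 in either direction could not be seen at this signal. The gap between Arg1 and Nos2 was 7.82 ± 0.38.

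Slc7a2 encodes CAT2, a carrier for arginine, lysine and ornithine. Its probe (NM_007514) went from 110.1 in untreated BMDMs to 825 after IL-4, with errors of 13.6 and 82.8. As for Arg1, the untreated spot was dim, with a median pixel brightness of 160, and the IL-4 spot stood well clear of it. The log2 difference was 2.81 ± 0.23, or 6.99-fold, and rank 30 of the 17242 genes. It was 2.02 with normexp and reached 3.09 with spike-in scaling, so the fold lay between 4.06 and 8.52 over the alternatives. Slc7a1, which encodes the widely expressed carrier CAT1, had a log2 difference of 0.44 ± 0.20 from intensities of 9465 and 13763. The response of Slc7a2 was larger than that of Slc7a1 by 2.37 ± 0.31 on the log2 scale, and by 1.56 with normexp.

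Ass1 encodes argininosuccinate synthase, which starts the rebuilding of arginine from citrulline. Its brighter probe read 1778 in untreated and 2093 in IL-4-treated BMDMs, and its dimmer probe 904 and 977. These gave log2 differences of 0.14 ± 0.20 and 0.01 ± 0.20, both within the error. Asl, the lyase that completes the step, had a log2 difference of -0.12 ± 0.20. Under this scaling neither enzyme of the recycling pair therefore differed by more than its spot error. Over the alternatives Ass1 ran from 0.07 to 0.42, the highest with spike-in scaling, which is past that error. Asl ran from -0.19 to 0.17.

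**Figure D2:**
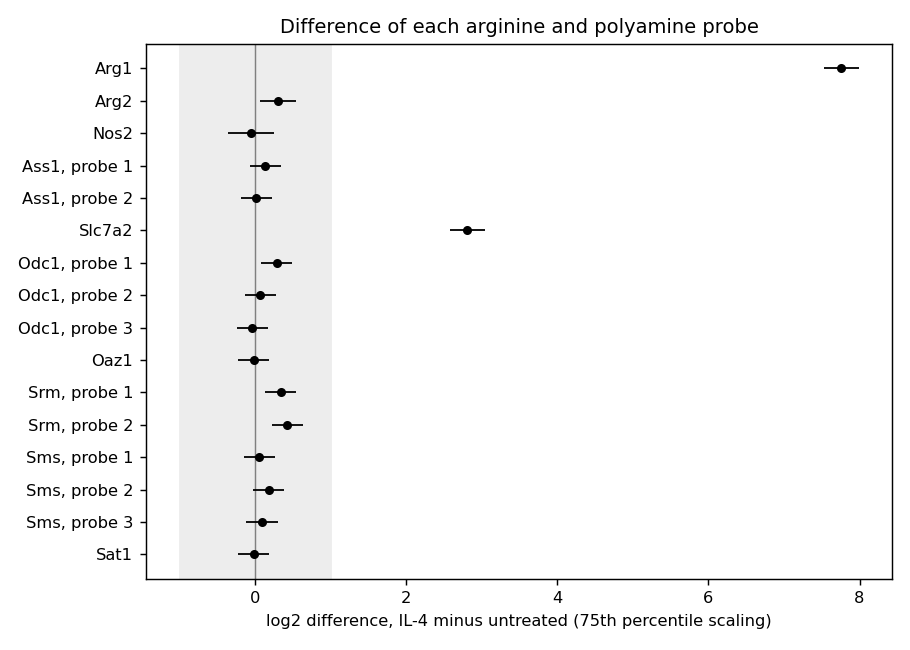
Log2 difference (x axis, IL-4 minus untreated, 75th percentile scaling) of each of the 16 probes, 1 row per probe, with bars for the error that the scanner software estimates for the 2 spots, and the range under 2-fold in grey. Only Arg1, at 7.76, and Slc7a2, at 2.81, lie outside the grey range, and the other 14 probes lie between -0.06 and 0.42.

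Odc1 encodes ornithine decarboxylase, the enzyme that turns ornithine into putrescine and a rate-limiting step of polyamine synthesis. Its brightest probe read 7800.2 in untreated and 10193 in IL-4-treated BMDMs, a log2 difference of 0.29 ± 0.20. The second probe read 1285 and 1442, with a log2 difference of 0.07, and the third 444 and 462, with -0.04. The probes thus disagree in sign under this scaling, but the last 2 values lie within their software errors of 0.20 and 0.21. The log2 difference of the third probe ran from -0.10 to 0.24 over other scalings. The range of 0.33 between the 3 probes exceeds that of 79.2% of the 3292 genes with several probes well above background on both arrays. For probes of similar signal printed in 10 spots, the SD of the log2 difference between spots was 0.051 to 0.068, which is less than that range. A gain of Odc1 of 1.22-fold therefore rests on its brightest probe, and the median over the 3 probes gave 0.07.

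Oaz1 encodes antizyme 1, which binds ornithine decarboxylase and sends it to the proteasome when polyamines are plentiful. Its probe read 64774 in untreated and 68560.4 in IL-4-treated BMDMs, and its bright spots were not saturated. The log2 difference was -0.02 ± 0.20. Other scalings took it from -0.10 to 0.27. It was positive in 4 of 15 alternatives, many of which leave it as it is, so no direction can be given. Oaz1 is known to be controlled in its translation, by a frameshift, which RNA signal does not measure.

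Srm encodes spermidine synthase, and its log2 differences were the largest among the polyamine genes of the 10. The brighter probe read 9979 in untreated and 13508 in IL-4-treated BMDMs, and the other 6799 and 9772. Both probes were higher after IL-4, with log2 differences of 0.34 ± 0.20 and 0.42 ± 0.20, or 1.26-fold and 1.34-fold. Both values exceed the software error, and they are several times the SD between spots of 0.046 and 0.049. The brighter probe stood at rank 1761 of the 17242 genes, and over the alternatives it stayed positive, between 0.26 and 0.62.

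Sms encodes spermine synthase, which acts on the product of Srm. Its 3 probes read 2763, 832 and 499 in untreated BMDMs and 3068, 1010.0 and 569 in IL-4-treated BMDMs. All were slightly higher after IL-4, with log2 differences of 0.05, 0.18 and 0.09, each within its error of 0.20 to 0.21. The sign of the first did not hold under all scalings, and the third came to -0.015 with normexp. The gap between Srm and Sms was 0.29 ± 0.29, which is no larger than its error.

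Sat1 encodes spermidine/spermine N1-acetyltransferase, which opens the way back from spermine and spermidine and marks them for export. Its probe read 8163 in untreated and 8636 in IL-4-treated BMDMs, values that overlap within their errors of 816 and 864. After scaling the log2 difference was -0.02 ± 0.20. It was positive in 3 of 15 alternatives, each a change of scaling, and many of the others leave it as it is. Odc1, Oaz1, Srm, Sms and Sat1, the polyamine genes among the 10, thus had log2 differences between -0.04 and 0.42 over all their probes.

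**Figure D3:**
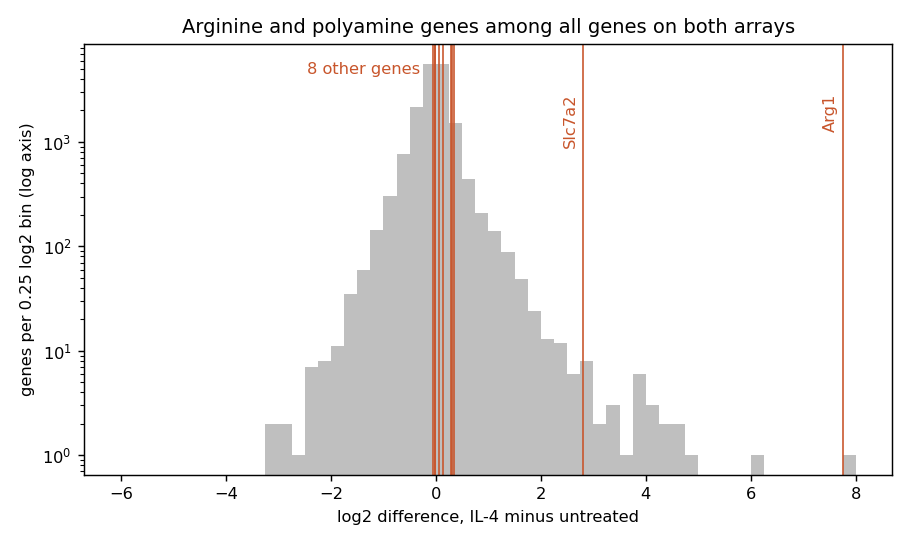
Number of genes (y axis, log scale) per 0.25 bin of the log2 difference (x axis, IL-4 minus untreated) over the 17242 genes measured on both arrays, with a vertical line for the brightest probe of each of the 10 genes. Arg1 lies alone at the right end and Slc7a2 in the right tail, while the other 8 genes lie in the central peak, between -0.06 and 0.34.

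Promoter windows from RefSeq were held for 5 of the 10 genes, Ass1, Oaz1, Odc1, Sat1 and Sms. The 3 below are shown because they belong to enzymes, and to an inhibitor, whose RNA stayed within 2-fold, and they are the 250 bases before the start of transcription (GRCm38.p6, all on the plus strand). Capitals mark GGGCGG, the GC box, and CACGTG, the E-box bound by MYC family factors, each searched on both strands, as was TATAAA, the TATA box. The Ass1 window is chr2:31470020-31470269, the Odc1 window chr12:17544623-17544872 and the Oaz1 window chr10:80826406-80826655.
Ass1: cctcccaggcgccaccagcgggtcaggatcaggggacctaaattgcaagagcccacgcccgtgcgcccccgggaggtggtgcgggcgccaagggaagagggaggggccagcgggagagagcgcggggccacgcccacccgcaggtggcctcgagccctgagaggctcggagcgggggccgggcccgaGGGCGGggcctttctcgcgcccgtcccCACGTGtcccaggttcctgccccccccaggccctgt
Odc1: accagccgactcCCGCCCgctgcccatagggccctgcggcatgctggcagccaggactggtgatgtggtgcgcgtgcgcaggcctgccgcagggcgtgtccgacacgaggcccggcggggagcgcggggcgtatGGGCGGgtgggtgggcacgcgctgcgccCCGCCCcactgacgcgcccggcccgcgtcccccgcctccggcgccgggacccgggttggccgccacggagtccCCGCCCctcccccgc
Oaz1: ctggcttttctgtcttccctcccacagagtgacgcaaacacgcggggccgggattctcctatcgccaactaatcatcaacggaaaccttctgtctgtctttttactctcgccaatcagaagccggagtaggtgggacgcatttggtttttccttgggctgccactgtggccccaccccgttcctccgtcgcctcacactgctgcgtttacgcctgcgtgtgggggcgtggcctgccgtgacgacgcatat
The Odc1 window, with 80.0% G and C, held 4 GC boxes, and the Ass1 window, with 75.6%, held 1 GC box and 1 E-box at bases -36 to -31. The Oaz1 window held neither. Of the windows not shown, that of Sat1 and a window of Sms held GC boxes, and the other Sms window held an E-box at bases -196 to -191. Of all 32851 promoter windows of this length, 32.7% held a GC box, 6.02% an E-box and 12.4% a TATA box. No TATA box was found in the windows of the 5 genes. The spaced palindrome of TTC and GAA, which STAT factors can bind and STAT6 prefers with 4 bases between, was found with 4 or 3 bases between in none of the 6 windows of the 5 genes, and in 5.85% and 7.02% of all windows. The match is one of letters and says nothing about binding.

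The rest of the pathway was read from 64 further genes in 8 lists, of which 62 were matched to a probe. On both arrays 51 of them stood well above background, and 11 did so on neither. Past 2-fold higher were 2 genes, Gatm and Azin2, and 0 were past 2-fold lower, where 2.11% and 1.57% of the 17242 genes on both arrays passed these limits. The median log2 difference of the 51 genes was 0.11.

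Gatm encodes glycine amidinotransferase, which uses arginine and glycine to make ornithine and the precursor of creatine. It had an intensity of 381 in untreated and 5992 in IL-4-treated BMDMs. The log2 difference was 3.87 ± 0.21, or 14.7-fold, at rank 13 of the 17242 genes, above Slc7a2. Over the alternatives it lay between 12.5-fold and 17.9-fold. Gamt, the next enzyme on the way to creatine, had a log2 difference of 0.26 from its brighter probe and 0.24 from its dimmer one, and the creatine carrier Slc6a8 one of -0.16. Agmat, which can make putrescine from agmatine, had a log2 difference of 0.02.

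Azin2 encodes an antizyme inhibitor, which frees ornithine decarboxylase from antizyme. Its 2 probes read 302 and 106 in untreated BMDMs and 1277 and 443 after IL-4. The log2 differences were 1.98 ± 0.21 and 1.97 ± 0.23, 3.95-fold and 3.91-fold, so both probes gave nearly the same value. The brighter probe stood at rank 65 of the 17242 genes. Azin1, the more widely expressed antizyme inhibitor, had a log2 difference of 0.12 ± 0.20, and the gap between them was 1.86 ± 0.29. Oaz2, a second antizyme, had a log2 difference of -0.09, and Oaz3 failed the background flag on both arrays.

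**Figure D4:**
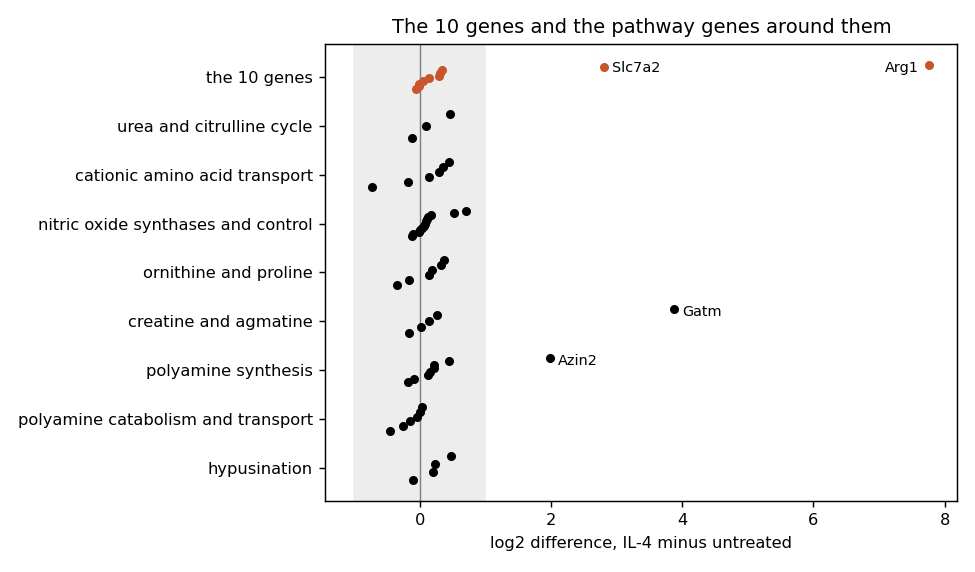
Log2 difference (x axis, IL-4 minus untreated) of the 10 genes (top row) and of the 51 pathway genes in 8 lists that were well above background on both arrays, 1 point per gene from its brightest probe, with the range under 2-fold in grey. Arg1, Slc7a2, Gatm and Azin2 are the 4 genes outside the grey range.

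The other carriers measured on both arrays lay within 2-fold. Slc7a7, which with Slc3a2 forms the carrier that exports cationic amino acids in exchange for neutral ones, was the lowest gene of all 8 lists. It read 4255 in untreated and 2741 in IL-4-treated BMDMs, a log2 difference of -0.73 ± 0.20, or 1.66-fold lower, and stayed below 0 in all 15 alternatives. Slc3a2, its partner and that of several other carriers, had a log2 difference of 0.14 ± 0.20. All of the 6 carrier genes measured on both arrays lay between -0.73 and 0.44.

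The nitric oxide list held 13 genes measured on both arrays, and none reached 2-fold. Gch1, the first enzyme in the synthesis of tetrahydrobiopterin, which nitric oxide synthases need, read 2388 in untreated and 4189.65 in IL-4-treated BMDMs at its brighter probe and 59.0 and 115 at its dimmer one. The log2 differences were 0.71 ± 0.20 and 0.87 ± 0.26, so both probes were higher after IL-4. It was the highest gene of this list and came to 0.997 with spike-in scaling. Nos3, the endothelial synthase, differed by 0.04 at its brighter and -0.19 at its dimmer probe on the log2 scale, and Nos1, the neuronal one, failed the background flag on both arrays.

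The polyamine synthesis list held 8 genes measured on both arrays, with a median log2 difference of 0.18, and Azin2 alone was past 2-fold. Mat2a, which makes S-adenosylmethionine, had log2 differences of 0.44 at its brighter and 0.34 at its dimmer probe, Mat2b, its regulatory subunit, had 0.21, and Ahcy, which clears S-adenosylhomocysteine, had -0.19 and -0.23. Decarboxylated S-adenosylmethionine is supplied by Amd1 and Amd2, which are near-identical copies. The 3 probes listed under Amd2 had log2 differences of 0.22, 0.39 and 0.36, and they may also read Amd1, for which no probe was matched. Mtap, which salvages the by-product of both synthases, had a log2 difference of 0.16. Ornithine also has other fates. Otc, which turns it into citrulline in liver, failed the background flag on both arrays, and Oat, which turns it into the precursor of proline and glutamate, had a log2 difference of 0.14 ± 0.20.

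Genes of polyamine breakdown and transport had a median log2 difference of -0.09 over 6 genes measured on both arrays, between -0.45 and 0.04, a median smaller than the shift that median or spike-in scaling brings. Smox, the spermine oxidase, differed by -0.26 at its brighter and -0.38 at its dimmer probe on the log2 scale, and Paox, which oxidises acetylated polyamines, had 0.00. Sat2, a relative of Sat1, had 0.04. Atp13a2, which carries polyamines out of lysosomes, was the lowest of the group at -0.45 ± 0.20, from intensities of 23115 and 18128.

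Spermidine also serves to modify eIF5A, in which a lysine is turned into hypusine by Dhps and Dohh. Eif5a read 20415 in untreated and 30515 in IL-4-treated BMDMs, a log2 difference of 0.48 ± 0.20. Dhps had a log2 difference of 0.23 at its brighter probe and 0.11 at its dimmer one, and Dohh one of 0.20. All 4 genes of this list were measured on both arrays and none reached 2-fold.

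**Figure D5:**
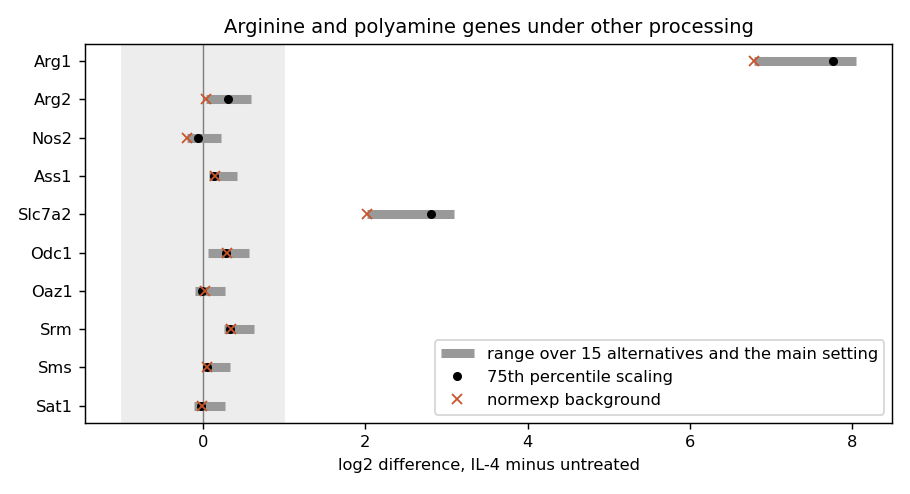
Log2 difference (x axis, IL-4 minus untreated) of the 10 genes with 75th percentile scaling (points), with normexp background correction (crosses) and over the main setting and all 15 alternatives (bars), with the range under 2-fold in grey. Arg1 and Slc7a2 stay outside the grey range throughout, and the other 8 genes stay inside it.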

How the data were processed

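Total RNA of untreated and IL-4-treated BMDMs was hybridised to Agilent mouse arrays (1 colour, Cy3), 1 per condition. The deposited scanner files hold, for each spot, the intensity after background subtraction and detrending by Feature Extraction 10.10.1.1, with no scaling between arrays, and the software's flags. A deposited table also gives log2 values that the authors processed, with scale and centring not given in the sources used here. Its differences for the 16 probes lay within 0.000565 of those computed here, and its column medians were 0.16 and 0.016.

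Here control and outlier-flagged spots were left out, spots of a probe were averaged as log2 intensity, and each array's 75th percentile (9.84 and 9.94) was subtracted. Of the gene spots, 59.8% and 57.4% were well above background. The probe with the highest mean signal stood for its gene, and a gene well above background on 1 array only had a lower bound. Accessions matched symbols of GRCm38.p6 for 27229 of 39424 probes, and the array design was annotated on mm9. Each unmatched identifier was kept as a gene of its own in the whole-array counts and ranks. The number of arrays limits the precision, and no test was run. The genes and lists were chosen with earlier results of these data known. Named genes are the 10, pathway genes past 2-fold, and those sharing a step, carrier family or partner with one of the 10, while Gamt, Slc6a8, Mat2a, Mat2b, Ahcy and Atp13a2 were named after their values were seen. Marker lists for eosinophils, basophils and mast cells and for dendritic cells had 4 of 7 and 2 of 5 genes well above background on both arrays, with 1 and 0 past 2-fold lower. In simulated data with 39424 probes, 200 probes well above background were moved well past the 2-fold limit, with log2 noise of 0.1. All 200 were recovered and 0 others called, which these settings make nearly certain. The simulation checks the counting step only and not the calls made on dim probes. Alternatives were other scalings (spike-in from 7 control probes), background corrections, detection filters, cutoffs and probe rules, and the deposited log2 table. The tools were R 4.3.3 with limma 3.58.1, and Python 3.11.15 with pandas 2.3.3.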

Additional observations from a re-analysis of the deposited data

How the results depend on the processing

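The counts of 2 higher and 0 lower among the 10 genes held under each of the 15 alternatives run. Of the 10 genes, 6 kept their sign in all of them, and Nos2, Oaz1, Sms and Sat1 did not. Of the 20 pathway genes named by rule that have a difference, 13 kept their sign. Filters and cutoffs cannot change the sign of a gene measured on both arrays. Kept outlier spots and the authors' log2 table hardly move its value. Only the scalings, normexp and the probe rule therefore put the sign to a test. Pathway genes past 2-fold lower rose in number from 0 to 3 without a filter on dim probes, to 3 with positive and significant signals and to 1 at a cutoff of 1.5-fold. Over the whole array, 564 genes were higher and 883 lower in the main setting. Spike-in scaling gave 954 higher and 495 lower, and normexp 297 and 268. Median scaling lowered the second count to 564 and quantile normalization to 536. The log2 table of the authors, for which no lower bounds were set, gave 848 and 1645. Dropping the filter gave 1389 and 4075, positive and significant signals 1388 and 4075, and detection on both arrays 363 and 270. A cutoff of 1.5-fold gave 1206 and 2164, and one of 3-fold 206 and 261. Filters, cutoffs and the normexp offset move counts by their construction, and for the rest the cause was not tested. Normexp was run on the median pixel intensity, since the files hold no mean, and with an offset of 50. No paired analysis was possible because both groups hold 1 array. Low signal limits Nos2, Arg2 and the untreated values of Arg1 and Slc7a2.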
